A study of Mus musculus with 8 samples.

Results

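The regions described here are 184 stretches of mouse DNA that are rich in CpG dinucleotides and nevertheless highly methylated in hematopoietic stem cells. The autosomes were divided into windows of 1000 bases, and a window was taken as CpG-dense when at least 20 of its CpGs had 10 or more reads in every one of the 8 mice. A dense window was chosen when its methylation level, the share of reads that kept a C, averaged 80% or more over the 8 mice. Of 13260 dense windows, 184 (1.39%) met the rule, 202 (1.52%) lay from 20% to under 80%, and 12874 (97.1%) lay under 20%. The windows were thus chosen by their measured levels, which are given as a description. The 184 windows are called methylated dense windows below.

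The study deleted Atg12, which encodes a ubiquitin-like protein needed to build autophagosomes, and measured the methylome by enhanced reduced representation bisulfite sequencing. Restriction fragments rich in CpGs are read after bisulfite treatment, which makes an unmethylated cytosine appear as T and leaves a methylated one as C. The knockout group was 4 C57BL/6 mice with the genotype Atg12fl/flMx1-cre. The control group was 4 C57BL/6 mice labelled WT, which the design text describes as carrying the loxP-flanked alleles without Cre, so their allele is not settled by the sources. All mice of both groups were given poly(I:C) when 4 weeks old, and their marrow was sorted after a further 2 to 3 months, 1 mouse per library. Mx1-Cre is switched on by interferon and acts in many tissues besides blood. The sort kept CD150+, CD48-, Flk2-, Sca-1+ and c-Kit+ cells without lineage markers, a phenotype of hematopoietic stem cells, and methylation tables hold no expression of these markers to check it by. Cytosines of the Y chromosome made up 7.90 to 9.01 of every 10000 listed cytosines in the knockout mice, against 1.15 to 1.83 in the control mice. Those of the X chromosome made up 1.83% to 1.93% of listed cytosines in the knockout mice, against 2.42% to 2.54% in the control mice. X and Y content thus differed between the groups throughout and cannot be told apart from genotype. Whether the groups differed in sex was not tested.

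Most vertebrate CpGs are methylated, and methylated CpGs are lost over evolution because methylcytosine mutates readily to thymine. Dense clusters of CpGs, called CpG islands, are usually kept unmethylated and mark the promoters of many genes. Known exceptions are the promoters of genes used only in germ cells, which are methylated in body cells, and CpG-rich stretches inside transcribed genes, where the methyltransferase Dnmt3b is recruited by a histone mark of transcription.

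Only 15 of the 182 windows that could be placed overlapped the promoter of a gene (8.24%), taken as the stretch from 250 bases before to 50 bases after a RefSeq start, and 13 of them held the start itself. The promoter was that of a protein-coding gene in 11 (6.04%), each with the start inside the window. The starts of 5 genes from a list of germ-cell genes that are methylated in body cells were among them. Mael acts in the piRNA pathway that silences transposons, Ddx4 is the germ-cell RNA helicase Vasa, Sohlh2 is a transcription factor of early germ cells, Hormad1 is a protein of meiotic chromosome axes, and Slc25a31 is the testis ADP/ATP carrier of mitochondria. Hsf5, which is not on the list, is a heat shock factor family member of the testis. The 250 bases before the RefSeq start of each (assembly GRCm38.p6, the mm10 build) are printed below, 5′ to 3′ in the direction of the gene, because they show how dense in CpGs a methylated start can be. Capitals mark the CpGs.
Mael: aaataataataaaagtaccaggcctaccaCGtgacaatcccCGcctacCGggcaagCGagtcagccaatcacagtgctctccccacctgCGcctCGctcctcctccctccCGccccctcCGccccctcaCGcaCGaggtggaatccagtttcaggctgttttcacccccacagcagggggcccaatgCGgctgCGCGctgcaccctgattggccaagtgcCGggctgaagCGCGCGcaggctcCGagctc
Slc25a31: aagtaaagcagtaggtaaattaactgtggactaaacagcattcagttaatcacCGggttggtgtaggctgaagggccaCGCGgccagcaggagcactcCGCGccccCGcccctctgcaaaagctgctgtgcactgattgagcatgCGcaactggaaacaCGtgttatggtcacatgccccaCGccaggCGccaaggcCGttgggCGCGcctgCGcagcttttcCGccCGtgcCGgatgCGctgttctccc
Sohlh2: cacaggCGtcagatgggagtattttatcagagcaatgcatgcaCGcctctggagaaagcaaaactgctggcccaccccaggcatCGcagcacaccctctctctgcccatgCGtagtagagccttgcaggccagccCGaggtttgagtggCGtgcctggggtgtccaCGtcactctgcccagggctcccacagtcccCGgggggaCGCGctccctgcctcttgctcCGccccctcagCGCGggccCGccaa
Hormad1: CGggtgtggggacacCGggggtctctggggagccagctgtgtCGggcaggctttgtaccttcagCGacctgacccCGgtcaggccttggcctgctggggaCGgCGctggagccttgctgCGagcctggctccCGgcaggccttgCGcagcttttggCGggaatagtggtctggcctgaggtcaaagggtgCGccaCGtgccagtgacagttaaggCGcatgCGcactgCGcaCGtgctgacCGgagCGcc
Ddx4: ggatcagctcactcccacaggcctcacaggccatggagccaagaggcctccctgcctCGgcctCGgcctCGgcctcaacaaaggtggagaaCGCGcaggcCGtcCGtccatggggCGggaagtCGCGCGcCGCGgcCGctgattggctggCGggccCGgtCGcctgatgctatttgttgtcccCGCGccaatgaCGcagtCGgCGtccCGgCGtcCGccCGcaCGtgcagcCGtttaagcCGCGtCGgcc
Hsf5: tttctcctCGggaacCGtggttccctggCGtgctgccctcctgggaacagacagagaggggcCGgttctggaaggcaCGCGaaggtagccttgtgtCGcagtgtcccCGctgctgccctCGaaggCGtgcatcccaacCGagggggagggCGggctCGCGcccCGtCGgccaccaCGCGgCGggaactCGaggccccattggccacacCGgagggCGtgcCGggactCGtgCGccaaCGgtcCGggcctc

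The Mael sequence is chr1:166238745-166238994 on the minus strand and holds 18 CpGs. The Slc25a31 sequence is chr3:40708621-40708870 on the plus strand and also holds 18. The Sohlh2 sequence is chr3:55181794-55182043 on the plus strand and holds 14, the fewest of these 6. The Hormad1 sequence is chr3:95559427-95559676 on the plus strand and holds 19, with a second RefSeq start 2 bases downstream. The Ddx4 sequence is chr13:112652311-112652560 on the minus strand and holds 31 CpGs, the most of the 6. The Hsf5 sequence is chr11:87616914-87617163 on the plus strand and holds 27.

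The 17 RefSeq promoters, of 16 genes, that overlapped methylated dense windows held a median of 22 CpGs, with 64.7% G or C and an observed over expected CpG ratio of 0.713. The 8911 promoters in dense windows under 20% held a median of 26 CpGs, with a ratio of 0.844. The 31396 autosomal promoters of the table had a median ratio of 0.389. The letters GCGGGA, a core that E2F transcription factors bind, were found on either strand in 8 of the 17 promoters (47.1%), in 43.3% of the 60 in partly methylated dense windows, in 44.2% of those in dense windows under 20% and in 20.2% of all. The letters CACGTG, an E-box, were found in 6 of the 17 (35.3%), against 13.3%, 10.6% and 7.14% in the same sets. Neither motif contains the other. The 17 include the overlapping pair of Hormad1 and that of Naa11 and 4930467D21Rik, so these shares rest on fewer separate sequences, and a match of letters is not a bound site.

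The Ddx4 start window (chr13:112652001-112653000, 41 CpGs) had levels of 82.9%, 81.0%, 86.7% and 89.5% in knockout mice 25, 28, 45 and 46, against 89.5%, 86.3%, 90.4% and 91.0% in control mice 1, 34, 36 and 37. The groups overlapped, and the means were 85.01 ± 3.83% and 89.3 ± 2.09% (SD, n = 4 each), with an adjusted p of 0.679 by the quasi-binomial model over all windows tested. The Mael window (chr1:166238001-166239000, 36 CpGs) had 88.1%, 85.02%, 87.0% and 88.2% in the knockout mice, against 86.1%, 84.4%, 84.3% and 88.1% in the control mice. It was the lowest of the 5 listed starts, and the groups overlapped. The Hormad1 window (chr3:95559001-95560000, 26 CpGs) had 94.7%, 94.0%, 91.5% and 93.0% in the knockout mice, against 93.9%, 93.4%, 94.8% and 95.4% in the control mice. The Sohlh2 window (chr3:55182001-55183000, 23 CpGs) had 94.4%, 95.3%, 92.4% and 96.0% in the knockout mice, against 95.9%, 95.8%, 95.3% and 96.1% in the control mice. The Slc25a31 window (chr3:40708001-40709000, 25 CpGs) had 94.0%, 96.0%, 89.0% and 93.6% in the knockout mice, against 95.4%, 92.3%, 95.4% and 95.1% in the control mice. In each of these 3 windows too the groups overlapped, with knockout 45 the lowest mouse.

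The other protein-coding starts were those of Hsf5 (93.2%), 1700067K01Rik (93.6%), 4933428G20Rik (92.0%), Dmrtb1 (91.1%), Naa11 (86.6%) and Rpl39l (86.2%), as means over 8 mice. Dmrtb1 is a transcription factor that times the entry of male germ cells into meiosis, Naa11 is a retrocopied N-terminal acetyltransferase subunit of the testis, and Rpl39l is a ribosomal protein variant of male germ cells. These 3 and Hsf5 were on none of the lists used, and were described after their levels were seen. Dmrtb1 has a second RefSeq start upstream at chr4:107684230, outside the window, and the 5′ end of the gene lies 20011 bases from the window. Over the 11 protein-coding starts the median level was 92.0%, and the adjusted p of genotype ran from 0.679 to 1. The other 4 windows overlapped the promoters of noncoding RNAs, with levels from 92.5% to 96.9%. In 2 of them, those of Gm52894 (96.9%) and Gm16617 (92.5%), the start itself lay outside the window.

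Of the 10 starts with measured CpGs within 500 bases on both sides, 9 had mean levels of 85% or more on both. In Ddx4 the 25 CpGs up to 500 bases before the start had a mean level of 87.8%, and the 16 CpGs up to 500 bases after it also had 87.8%. In Hsf5 the values were 94.6% before and 92.3% after the start. Rpl39l had the widest step among the starts with CpGs on both sides, with 93.9% over 12 CpGs before the start and 76.5% over 9 CpGs after it. Single CpGs below the rest were present as well, since 1 CpG of the Hsf5 window was at 0% in every mouse.

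**Figure D1:**
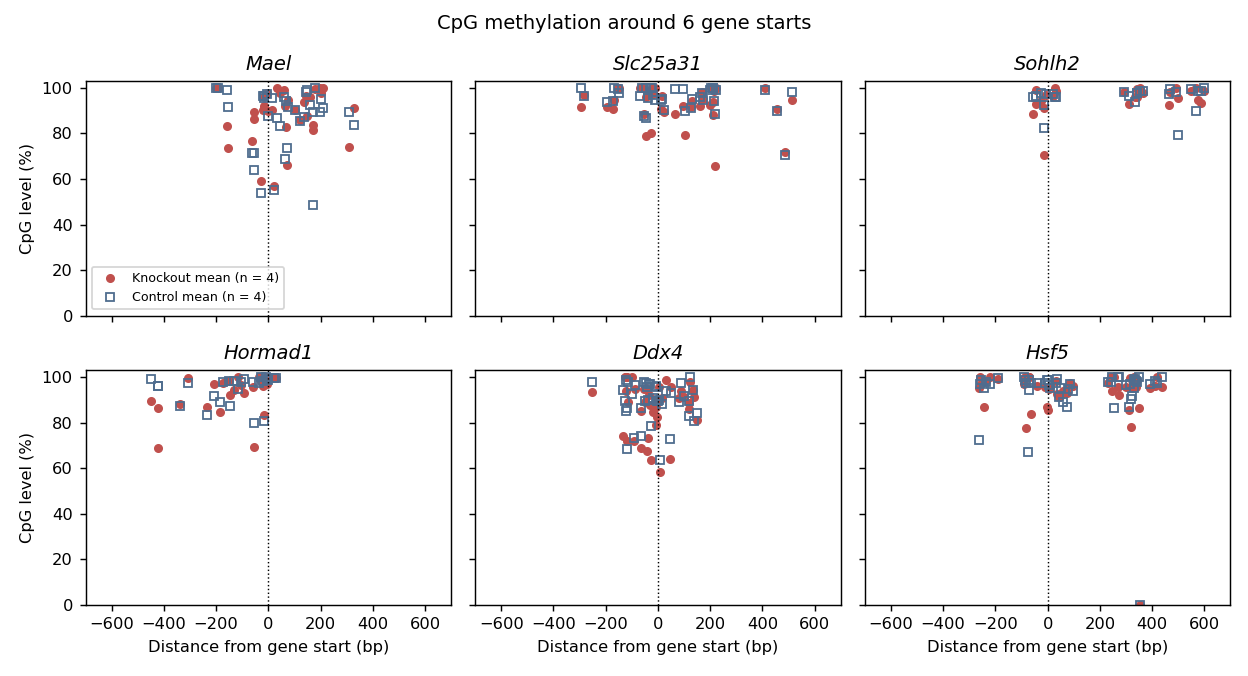
Methylation level of single CpGs (percent, y axis) by distance from the gene start in bases (x axis) in 6 methylated dense windows at gene starts, with the mean of the 4 knockout mice as filled circles and that of the 4 control mice as open squares. Most points of both groups lie near the top on both sides of the start, and 1 CpG of Hsf5 lies at 0% in both groups.

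No promoter of the other gene lists overlapped these windows. Of the 48 listed germ-cell genes, 43 had a RefSeq start in the table and 11 had a promoter that overlapped a dense window, of which 5 were methylated dense windows, 3 genes had partly methylated ones and 3 had unmethylated ones only. Those 3 partly methylated starts were Dazl (61.6%), Tdrd1 (67.5%) and Boll (60.9%), genes of germ-cell RNA binding and piRNA formation. A second Boll start lay in a dense window at 4.65%. Among dense windows over promoters, none was methylated at 20% or more for 17 autophagy genes, 11 hematopoietic stem cell genes, 10 genes of DNA methylation enzymes, 5 lymphoid genes, 2 myeloid genes and 2 pluripotency genes. The lists were drawn up with earlier results of these data known, so the counts describe the windows and were not tested.

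Inside genes lay 158 of the 182 placed windows (86.8%), and 9 (4.95%) lay between genes. Of the partly methylated dense windows, 25.4% overlapped a promoter and 60.9% lay in gene bodies. Of the dense windows under 20%, 58.5% overlapped a promoter and 35.9% lay in gene bodies. Methylation of 80% or more was common where CpGs were sparse: 46909 windows with 3 to 19 CpGs had it, and 2.08% of those overlapped a promoter, 56.2% lay in gene bodies and 35.5% between genes. A gene without a start in the table used could count only as gene body. The host gene had a listed start for 126 of the 158 methylated dense windows in gene bodies. It had one for 90 of 120 partly methylated dense windows, 2502 of 4487 dense windows under 20% and 20562 of 25535 sparse methylated windows. The promoter shares could therefore be too low, most of all for dense windows under 20%. These shares describe sets that the level itself defines, and were not tested.

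Within genes the methylated dense windows lay towards the 3′ end. Of the 126 in gene bodies with a known strand, 61 (48.4%) lay in the last 20% of the gene's length and 6 (4.76%) in the first 20%. The partly methylated dense windows had 42.2% in the last 20% and 16.7% in the first 20%. Dense windows under 20% had the opposite lean, with 7.71% in the last 20% and 66.1% in the first 20%. The sparse methylated windows had 30.4% in the last 20% and 12.9% in the first 20%. A distance of 3000 bases or less from the 3′ end was found for 58 of the 126 windows (46.03%), against 41.1% of the partly methylated dense windows, 17.7% of the dense windows under 20% and 16.2% of the sparse methylated windows. The median distance to the 3′ end was 3469 bases, against 5136.5 bases for the partly methylated dense windows, 27174.5 bases for dense windows under 20% and 20297.5 bases for the sparse methylated windows. Exons and untranslated regions were not annotated in the gene table used.

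**Figure D2:**
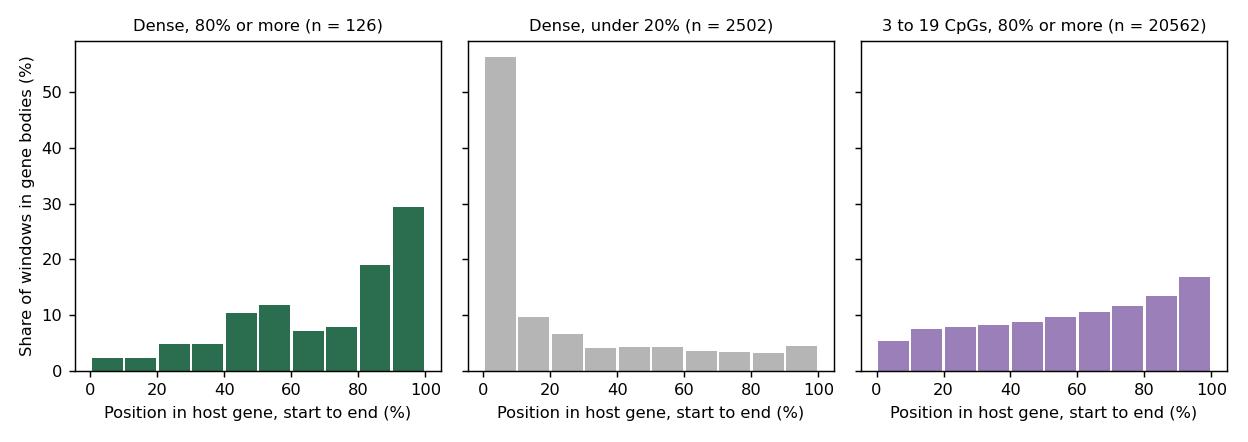
Share of windows in gene bodies with a known strand (percent, y axis) by position in the host gene from start to end (percent of its length, x axis), for methylated dense windows (left, n = 126), dense windows under 20% (middle, n = 2502) and windows of 3 to 19 CpGs at 80% or more (right, n = 20562). The last 20% holds 48.4% of the methylated dense windows and the first 20% holds 66.1% of the dense windows under 20%.

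The windows fell in 159 host genes, 11 of them with 2 or more windows. Host genes named as zinc-finger proteins (symbols that begin with Zfp, Zbtb, Zscan, Zfpm, Zfhx or Zkscan) held 19 windows (10.3%) in 17 genes, against 4.46% of the partly methylated, 1.94% of the unmethylated and 1.18% of the sparse methylated windows. This group was noticed in the data and has no test. Zinc-finger genes of this kind often carry long terminal exons that encode arrays of fingers. The levels ran from 88.3% (Zfp444) to 97.8% (Zfp787), with a median of 93.5%. Of the 16 with a known strand, 9 lay within 3000 bases of the 3′ end, and the median distance was 2436 bases. Zfpm1, which encodes the GATA1 cofactor FOG1 needed for red cell and platelet formation, held the window with the most CpGs of all (69, chr8:122336001-122337000). Its levels were 93.7%, 91.2%, 95.9% and 90.8% in the knockout mice, against 94.5%, 91.0%, 92.8% and 95.4% in the control mice, with overlapping groups.

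Chromosome 7 carried 32 of the 184 windows (17.4%), against 6.89% of all dense windows. Chromosome 9 carried 2. On chromosome 7, 11 of the zinc-finger windows were found. The 9 windows between genes had levels from 84.4% to 96.1%, and a pair of them overlapped the RefSeq pseudogenes Cdc34b and Tgif2-ps2.

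Most windows stood alone under the rule of at least 20 CpGs. Joined to their neighbours, the 184 windows formed 173 blocks, of which 163 were single, 9 were pairs and 1 was a run of 3. The run of 3 lay in 2700081O15Rik (chr19:7421001-7424000, 110 CpGs), and the longest pairs lay in Zfp865 (chr7:5030001-5032000, 94 CpGs) and Shroom3 (chr5:92941001-92943000, 93 CpGs), whose product organises actin in epithelial cells. The 3 windows of the run had means of 84.4 ± 3.1%, 93.2 ± 3.12% and 88.0 ± 1.2% in knockout mice, against 87.1 ± 1.79%, 89.8 ± 8.56% and 87.1 ± 5.6% in control mice (SD, n = 4 each), and control 34 was low in the middle one at 77.0%. The Zfp865 pair had 94.4 ± 0.767% and 95.5 ± 1.08% in knockout mice, against 94.5 ± 1.13% and 95.3 ± 0.708% in control mice. The 123 measured neighbouring windows that were not themselves among the 184 held a median of 7 CpGs. Of these, 99 (80.5%) were at 80% or more, 17 lay between 20% and 80% and 7 were under 20%. Of these 7, that beside the Fbxl19 window (96.5%) held 20 CpGs at 0.252%, and that beside the Rbm15b window (86.4%) held 124 CpGs at 0.274%.

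The rule used every CpG that had 10 reads in all 8 mice, which left a set of CpGs that it did not use. In 182 of the 184 windows there were 2866 further CpGs with 10 reads in some of the mice but not in all. Their level, over summed reads, was 90.8%, 92.7%, 93.8% and 92.3% in knockout mice 25, 28, 45 and 46, against 94.8%, 88.6%, 94.7% and 93.7% in control mice 1, 34, 36 and 37. These CpGs share fragments and mice with those that chose the windows. In the partly methylated dense windows the same kind of CpG averaged 36.9% to 56.7% per mouse, and in the dense windows under 20% it averaged 1.73% to 2.91%.

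Inside the windows nearly all CpGs were methylated. The median over the 5138 CpGs was 95.4%, and 4081 (79.4%) were at 90% or more. There were 40 CpGs (0.779%) under 50%, in 26 windows, and 9 under 20%, in 7 windows. In 75 windows every CpG was at 80% or more. For 1343 CpGs both strands were measured, with mean levels of 92.2% on the forward and 91.8% on the reverse strand and a median absolute difference of 2.58 points.

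Window levels ran from 80.3% to 97.8%, with quartiles of 90.2%, 93.8% and 95.9%. There were 74 windows at 95% or more and 16 under 85%. In 162 of the 184 every mouse was at 80% or more, and in 22 at least 1 mouse was lower. The word fully therefore stands for an average of 80% or more, and does not hold for every CpG or mouse. The SD over the 8 mice had a median of 1.67 points and exceeded 5 points in 11 windows. Among the highest were windows in Zfp787 (97.8%) and in Usp32 (97.3%), a deubiquitinase gene. The Usp32 window also overlapped the RefSeq pseudogenes Gm18157 and Rpl13-ps1. Just inside the threshold lay windows in H13 (80.3%), Dpf1 (80.7%) and Gm128 (81.1%), and just outside it windows on chromosomes 12 (79.97%), 2 (79.7%) and 11 (79.2%).

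**Figure D3:**
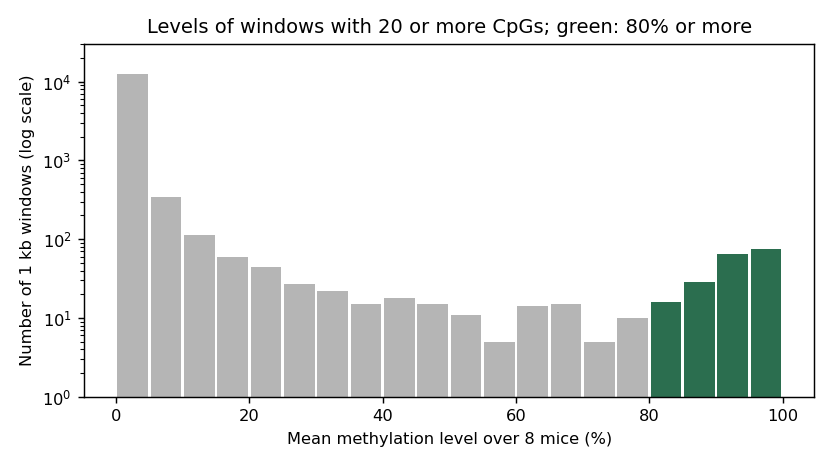
Distribution of mean methylation level over 8 mice (percent, x axis) among dense windows, in steps of 5 points, with the number of windows on a log y axis. Of 13260 dense windows, 12874 lie under 20% and 184 at 80% or more, with 202 between.

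The median depth was 220 reads per CpG, against 363 in dense windows under 20%. The depth of 2 windows stood far above the rest, 1 on chromosome 2 (chr2:98662001-98663000, 9639 reads per CpG, 93.0%) and 1 in Sfi1 (chr11:3193001-3194000, 6070 reads per CpG, 84.2%), while the highest of the others had 412. The Sfi1 window had 69.4% in control 34 and 79.99% to 89.8% in the other mice. Whether reads of other copies were counted there was not tested.

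Averaged over the 184 windows, the mice differed little. The mean level was 91.8%, 92.7%, 92.8% and 92.7% in knockout mice 25, 28, 45 and 46, against 93.2%, 90.9%, 92.7% and 93.1% in control mice 1, 34, 36 and 37. The group means were 92.5 ± 0.441% in knockout mice and 92.5 ± 1.05% in control mice (SD, n = 4 each), a difference of 0.0151 points that was left untested because the windows were chosen with results known. Without control 34 the difference was -0.503 points. Control 34 was the lowest mouse in 62 of the 184 windows, and knockout 25 came next with 25.

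Control 34 also had the lowest relative depth in these windows. The ratio of reads per CpG in the methylated dense windows to that in dense windows under 20% was 0.438, 0.603, 0.673 and 0.544 in the knockout mice, against 0.789, 0.369, 0.752 and 0.725 in the control mice. The group means were 0.564 ± 0.0997 in knockout mice and 0.659 ± 0.195 in control mice (SD, n = 4 each). Control 34 and knockout 25 had both the lowest ratios and the lowest mean levels of their groups, and the part of coverage in the levels was not tested.

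**Figure D4:**
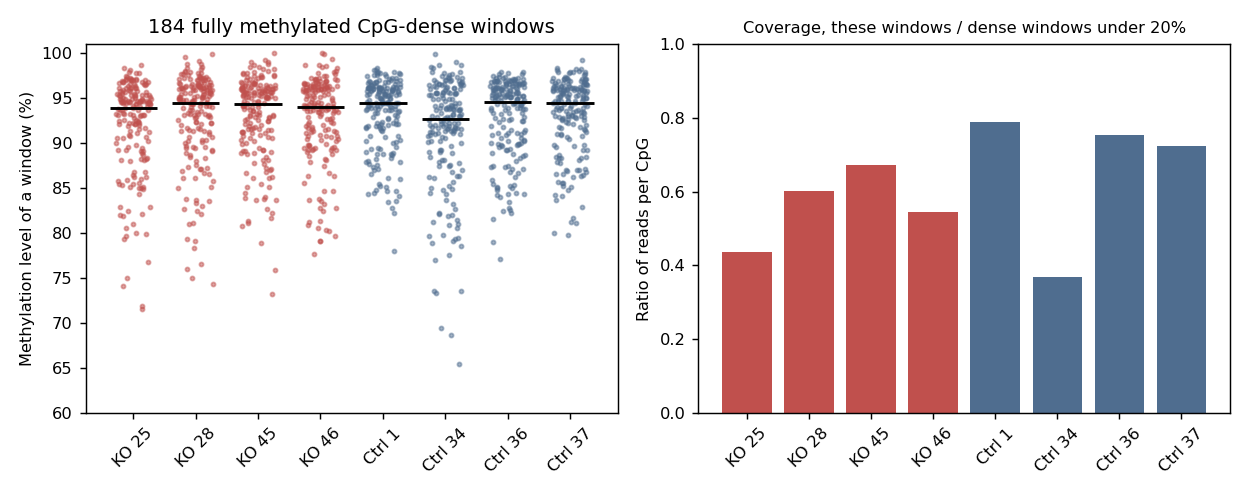
Left, methylation level (percent) of each of the 184 windows in each mouse, with a line at the median; right, ratio of reads per CpG in these windows to that in dense windows under 20%. Knockout mice (KO) stand left of control mice (Ctrl), and control 34 has both the lowest median (92.6%) and the lowest ratio (0.369).

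The genotype comparison asked whether loss of Atg12 in the stem cells went with a change at these windows. No window was called by genotype at an adjusted p of 0.05, neither among the 184 nor among the 63342 windows tested genome-wide (0%). The smallest adjusted p was 0.586 among the 184 windows and 0.0868 among all, by the quasi-binomial model with Benjamini-Hochberg adjustment. At an unadjusted p under 0.05, 29 of the 184 windows (15.8%) passed, against 6.56% of all windows tested and 14.9% of the 902 dense windows tested. Limma on log2 ratios passed 5 of the 184 (2.72%) and 3231 of all windows (5.10%) at that level. edgeR's quasi-likelihood test passed 18 (9.78%) and 2171 (3.43%), and neither called any after adjustment. The share among the 184 was thus below that of all windows with limma and above it with the other models. In the quasi-binomial model it was near that of dense windows in general. Leaving out control 34 gave 29 calls among all windows and 1 among the 184, the window of 9639 reads per CpG.

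Both directions were present. Of the 29 windows, 16 were lower in knockout mice (8.7%, against 3.75% of all windows) and 13 were higher (7.07%, against 2.81% of all windows). The knockout mice lay wholly below the control mice in 7 of the 184 windows (3.8%), against 1.56% of all windows tested, and wholly above them in 5 (2.72%), against 1.72%. Together these 12 windows were 6.52% of the 184, against 4.66% of the dense windows tested. The median difference was 0.137 points over the 184 windows and -0.00944 points over all windows tested. Differences ran from -7.48 to 5.89 points, and 12 windows (6.52%) differed by 5 points or more, against 19.5% of all windows tested. That share was 10.5% of the dense windows tested and 13.2% of the sparse methylated windows.

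The 6 windows with the smallest p among those lower in knockout mice are given with their values, none of which passed the adjusted threshold. Those in Lmtk3 and Shank2 each adjoin another methylated dense window of the same gene (runs chr7:45794001-45796000 and chr7:144410001-144412000). Neither adjoining window is among the 6, so the values given do not stand for the whole gene. A window in Lmtk3 (chr7:45794001-45795000, 37 CpGs), a gene of the lemur tyrosine kinase family, had 81.0%, 87.2%, 88.9% and 82.5% in the knockout mice, against 94.1%, 92.9%, 90.3% and 90.9% in the control mice. All knockout mice lay below all control mice, with means of 84.9 ± 3.75% and 92.0 ± 1.76% and an adjusted p of 0.586 by the quasi-binomial model. A window in Bcl11b (chr12:107916001-107917000, 31 CpGs), a transcription factor gene of T cell commitment, had 94.7%, 94.6%, 92.9% and 94.2% in the knockout mice, against 97.5%, 98.6%, 97.1% and 96.2% in the control mice. These groups did not overlap either, with a difference of means of -3.22 points, or -1.88 points as a mean over CpG levels. A window in Ano8 (chr8:71481001-71482000, 25 CpGs), a gene of the anoctamin family of membrane proteins, had 85.1%, 83.6%, 85.2% and 88.7% in the knockout mice, against 90.8%, 91.7%, 91.1% and 89.6% in the control mice. The groups were again apart.

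A window in Shank2 (chr7:144410001-144411000, 26 CpGs), a scaffold gene of synapses, had 84.3%, 88.0%, 88.1% and 80.3% in the knockout mice, against 91.7%, 90.02%, 89.3% and 90.7% in the control mice. The window over the pseudogene Cdc34b (chr11:94741001-94742000, 22 CpGs) had 86.0%, 92.5%, 91.1% and 89.0% in the knockout mice, against 93.1%, 95.6%, 93.7% and 97.2% in the control mice. Neither pair of groups overlapped. A window in Begain (chr12:109034001-109035000, 25 CpGs), a gene of a synaptic protein, had 79.7%, 76.0%, 81.6% and 80.8% in the knockout mice, against 88.7%, 79.3%, 91.9% and 83.7% in the control mice. Here control 34 lay among the knockout mice.

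Of the windows higher in knockout mice, 5 are described. That in Zfp423 (chr8:87780001-87781000, 22 CpGs), a zinc-finger transcription factor gene, had 90.5%, 95.9%, 93.0% and 93.4% in the knockout mice, against 89.0%, 92.5%, 82.5% and 85.3% in the control mice, with knockout 25 below control 34 and an adjusted p of 0.653 by the quasi-binomial model. Its difference was 5.89 points over summed reads and 1.24 points as a mean over the levels of its CpGs. The window in Rasal3 (chr17:32396001-32397000, 43 CpGs), a Ras GTPase-activating protein gene of blood cells, had 88.0%, 92.0%, 90.4% and 91.6% in the knockout mice, against 86.5%, 79.8%, 87.3% and 87.0% in the control mice. Its groups did not overlap, and control 34 was the lowest mouse. The difference was 5.33 points, and 3.54 points without control 34.

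The window in Ccm2l (chr2:153071001-153072000, 38 CpGs), a gene related to the vascular malformation gene Ccm2, had 96.6%, 97.8%, 96.2% and 96.3% in the knockout mice, against 94.7%, 95.7%, 90.5% and 94.1% in the control mice, again apart. The difference of 2.95 points was 1.87 points without control 36. The window in Agap2 (chr10:127079001-127080000, 59 CpGs), a GTPase-activating protein gene, had 86.4%, 88.4%, 88.4% and 89.5% in the knockout mice, against 84.4%, 82.1%, 85.5% and 86.6% in the control mice, and knockout 25 lay just below control 37. Agap2 also holds an adjoining methylated dense window (run chr10:127079001-127081000) and another that starts at chr10:127091001. Neither is among the windows described for small p, so this window does not stand for the whole gene. The window between genes at chr2:116535001-116536000 (20 CpGs) had 85.3%, 87.1%, 86.8% and 87.4% in the knockout mice, against 84.3%, 85.7%, 77.2% and 81.7% in the control mice, with knockout 25 below control 34. Its difference of 4.45 points was 2.77 points without control 36 and 1.59 points as a mean over CpG levels. For the 7 of these 11 windows whose groups were apart, the exact permutation p was 0.0286 (two-sided), which is the lower limit for groups of this size. Groups that are apart always give this value, and the windows were picked for small p, so it is not a further test. For the 11, the adjusted p ran from 0.586 to 0.698 and, over the alternative settings, from 0.124 to 1.

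**Figure D5:**
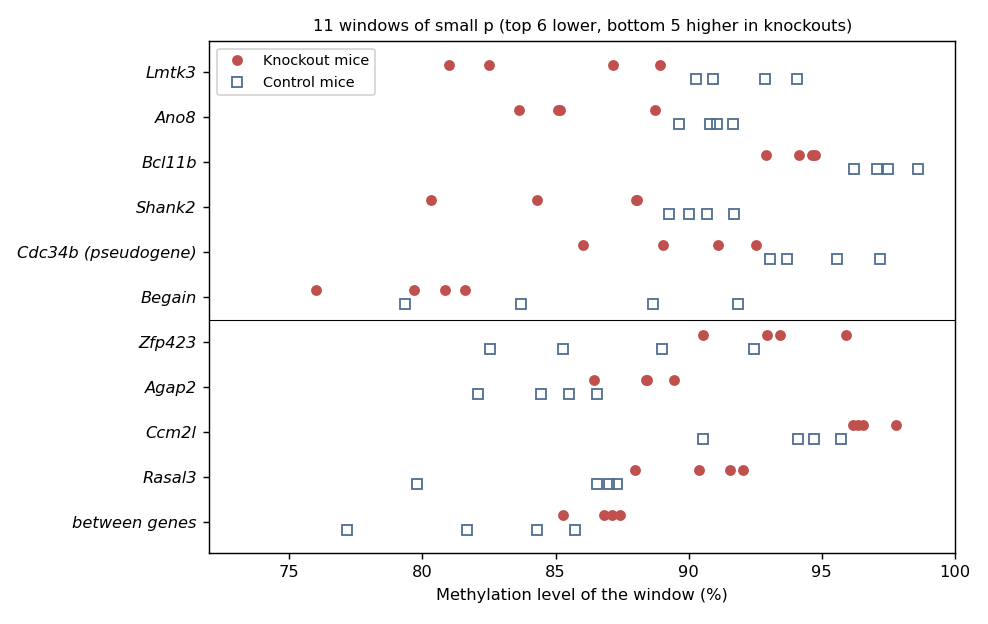
Methylation level (percent) of each mouse in the 11 windows described for their small p, with knockout mice as filled circles above control mice as open squares, and windows lower in knockout mice at the top. In Lmtk3 the 4 knockout mice lie between 81.0% and 88.9%, all below the control mice at 90.3% to 94.1%.

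The windows that varied most between mice did not separate by genotype. The window in Fam50b (chr13:34747001-34748000, 37 CpGs) had 79.4%, 92.1%, 96.6% and 79.1% in the knockout mice, against 95.9%, 91.7%, 93.8% and 95.7% in the control mice. Its means of 86.8 ± 8.93% in knockout mice and 94.3 ± 1.97% in control mice were the farthest apart of the 184, with a pair of low knockout mice and an adjusted p of 0.729 by the quasi-binomial model. A window in Magi1 (chr6:93678001-93679000, 23 CpGs), a scaffold gene of cell junctions, had 71.5%, 76.5%, 81.1% and 82.8% in the knockout mice, against 88.8%, 73.3%, 94.2% and 81.2% in the control mice. A window in Gpc2 (chr5:138275001-138276000, 21 CpGs), a glypican gene, had 89.3%, 83.6%, 89.3% and 89.2% in the knockout mice, against 90.7%, 68.7%, 88.5% and 86.9% in the control mice, and control 34 alone was low. The Gpc2 window also overlapped the gene Stag3.

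The windows with the most CpGs after Zfpm1 varied in how close the mice lay to each other. The window of 64 CpGs at the 4933428G20Rik start, inside Arhgap23, had means of 92.4 ± 1.56% in knockout mice and 91.6 ± 4.28% in control mice. The window of 62 CpGs in Shroom3 had 95.4 ± 0.813% and 95.8 ± 1.04% in knockout and control mice. The window of 55 CpGs in Tmem259, which also overlapped the gene Grin3b, had 96.4 ± 1.56% and 95.3 ± 1.42% in knockout and control mice. Hcn2, which encodes a pacemaker ion channel, had 81.8 ± 4.51% in knockout mice and 81.8 ± 5.5% in control mice over 59 CpGs. Control 34 was the lowest there at 73.6%, then knockout 25 at 76.8%, and the SD over the 8 mice was 4.66 points. The Agap2 window given above also held 59 CpGs.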

How the data were processed

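DNA methylation was measured in 8 libraries, 4 knockout and 4 control mice, grouped by the genotype label. The deposited tables give, per cytosine, the authors' coverage as a count of reads and the authors' percent of reads showing C or T, per the file headers. No listed cytosine had under 10 reads. The mm10 build, Bismark and CASAVA 1.8.2 are named per the submitters' processing notes, and filters and duplicate handling were not stated in the sources read. Reads carry no stated molecular identifiers, so depth overstates the number of molecules, and each table listed 2038266 to 3366162 cytosines. The replicate numbers name mice and are not shared between groups.

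Methylated reads were recovered as coverage times percent, rounded, and both strands of a CpG were added. CpGs with 10 or more reads in all 8 mice on chromosomes 1 to 19 were kept (1087161 of 5202765). A window's level per mouse is its methylated reads over all its reads. Genotype was tested in 63342 windows of 3 or more CpGs at a mean level of 5% or more, with a logistic quasi-binomial model, overdispersion moderated with limma 3.58.1 (squeezeVar, R 4.3.3, floor of 1), and Benjamini-Hochberg adjustment at 0.05. The model was tested on simulated data. Exact permutation tests were two-sided over the 70 arrangements of mice. Alternatives were edgeR 4.0.16, limma on log2 ratios with 1 read added, other coverage, level, CpG and window settings, and leaving mice out. Python 3.11.15 with numpy 2.4.6 and pandas 2.3.3 made the summaries.

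Gene starts, strands and promoter sequences came from RefSeq for GRCm38.p6. The table used gave none for chromosome 18, so 182 of the 184 windows were placed, and windows there are counted but not named. The windows and gene lists were chosen with earlier results of these data known. Named windows are the 6 of smallest p in each direction, the 6 with most CpGs, those at starts of listed genes, the 3 of largest SD, the 3 on either side of the threshold, the 3 longest runs and the 3 of highest level. The zinc-finger hosts, the other gene starts, the deepest windows and the neighbours under 20% were singled out after their values were seen. Of the windows this rule names, 2 are not reported here.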

Additional observations from a re-analysis of the deposited data

Results flagged for a closer look

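In each value below a single mouse stood apart from the other 3 of its group, by a gap that takes up most of the group's range (Dixon's test at its 95% critical value). Of 96 groups of 4 mice checked, 10 (10.4%) met this. A rate of about 1 in 20 by chance holds only for independent groups that were not chosen by their values. Here the groups reuse the same mice, and some windows were named for their values, such as Gpc2 for its large SD. The share therefore cannot be compared with that rate. Knockout 25 had a mean level of 91.8% over the 184 windows, with the next knockout mouse at 92.7%. Knockout 28 had 83.6% in the Gpc2 window, with the next knockout mouse at 89.2%. Knockout 46 had 86.3% in the Gm128 window, with the next knockout mouse at 75.9%.

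The other 7 were all control 34. It had 65.4% in the H13 window (next control mouse 81.6%), 77.0% in the middle 2700081O15Rik window (next 93.3%), 73.6% in the Hcn2 window (next 84.1%) and 79.8% in the Rasal3 window (next 86.5%). It had 92.3% in the Slc25a31 window (next 95.1%) and 93.2% in the Tmem259 window (next 95.9%). Its ratio of reads per CpG in the 184 windows to that in dense windows under 20% was 0.369, with the next control mouse at 0.725.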

How the results depend on the processing

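The number of windows depends on the CpG minimum: 184 became 517 with 15 or more CpGs and 96 with 25 or more, while the other settings gave 139 to 194. The number of windows with non-overlapping groups, 12 of 184, became 26 of 517 with 15 or more CpGs. Among the 184 it became 33 without knockout 25 and control 34 together. With single mice left out it became 14 to 24 (22 without knockout 25, 19 without knockout 45, 22 without knockout 46, 24 without control 34). Smaller groups overlap less by construction, and the shares over all windows tested were not counted at these settings. Calls over all windows, 0, became 4 without knockout 25 and control 34 together and 0 to 29 when single mice were left out (11 without knockout 45, 29 without control 34). Calls among the 184 windows became 0 to 1. The 1 call, without control 34, was the window of 9639 reads per CpG on chromosome 2 (-2.69 points, adjusted p 0.0093 by the quasi-binomial model, 0.0093 to 1 over the settings), whose difference turned to 6.69 points without the CpGs of extreme coverage; the cause was not tested. The mean difference over the 184 windows ran from -0.503 to 0.253 points; it was larger than the pooled SD between the mice used without control 34 (-0.503, SD 0.352) and without knockout 25 and control 34 together (-0.284, SD 0.173), and was below 0 in 7 of the 19 settings, that of the report included in the 19. No paired analysis was possible because the groups share no replicate numbers. Reads per CpG were lower in these windows than in dense windows under 20% in every mouse, and only 4 mice a group were available.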
